A study of Mus musculus with 24 samples.

Results

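Liver plasma protein transcripts are a set of 31 genes given by name, out of 41388 genes in the count table, that hepatocytes are known to transcribe strongly. Bulk RNA was read from sorted macrophages of 2 tissues: dura mater, the tough sheath that encloses the brain, and diaphragm, the breathing muscle, whose lower surface faces the liver. All samples came from wild-type C57BL/6 mice of 17 weeks at steady state, and blood had been flushed out through the heart, per the labels. The labels give 9 dural and 15 diaphragm samples in 3 macrophage subsets a tissue, but the column names of the table match no subset. The columns show the tissue, for dura a number (1, 3 or 4) with a mark (P4, P5 or P6), and for diaphragm a number from 1 to 9. The labels do not say what the marks or numbers are, so dural libraries were grouped by mark, and diaphragm libraries by the number sets 1/7, 2/8 and 3/6/9. Diaphragm columns of the same number were summed, and numbers 4 and 5, with almost no counts, were left out. This gave 9 dural libraries of 10457920 to 24077834 counts and 7 diaphragm libraries of 11053351 to 30132295 counts. No label says that libraries come from separate animals, so the p-values rest on the spread from library to library, which may be technical. A batch that differed between the tissues could not be told apart from tissue. The series title names RAG-1 deficient mice given T cells, which the labels of these samples do not. How the diaphragm was digested is not given in those labels.

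The liver supplies most of the soluble protein of blood. Hepatocytes make albumin, carriers of iron, haem, vitamins and lipids, protease inhibitors and the chains of fibrinogen, and their transcription depends on a group of hepatocyte factors that includes HNF1, HNF4 and the C/EBP family. Macrophages do not normally make albumin or fibrinogen, but they take up several of these proteins from plasma through receptors such as Cd163 and Lrp1. Some members are also transcribed elsewhere: transferrin by several cell types of the nervous system and by macrophages, vitronectin by vessel-associated cells, and Apoc1 by macrophages. The set holds 9 carriers and adhesive proteins, 7 apolipoproteins, 7 serpins (serine protease inhibitors), 3 fibrinogen chains and 5 liver enzymes or intracellular carriers.

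The 250 bases before the start of transcription are shown for 4 members that were prominent in diaphragm and at or near 0 in dura, because they hold the letters that hepatocyte factors are known to bind. They are from RefSeq (build GRCm38.p6) and run 5′ to 3′ on the gene's strand, with matches to the motifs searched in capitals. Alb is at chr5:90460620-90460869, plus strand, Gc at chr5:89457899-89458148, minus strand, Fga at chr3:83025903-83026152, plus strand and Ahsg at chr16:22891765-22892014, plus strand.
Alb: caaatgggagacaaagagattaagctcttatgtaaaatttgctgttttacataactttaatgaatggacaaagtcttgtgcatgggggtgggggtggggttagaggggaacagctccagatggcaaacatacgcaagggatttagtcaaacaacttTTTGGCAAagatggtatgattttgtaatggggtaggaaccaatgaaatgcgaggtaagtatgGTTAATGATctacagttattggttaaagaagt
Gc: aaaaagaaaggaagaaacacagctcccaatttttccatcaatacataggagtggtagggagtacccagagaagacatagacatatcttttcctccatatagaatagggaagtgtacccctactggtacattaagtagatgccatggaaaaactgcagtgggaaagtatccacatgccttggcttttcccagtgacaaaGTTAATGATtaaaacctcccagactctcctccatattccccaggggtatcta
Fga: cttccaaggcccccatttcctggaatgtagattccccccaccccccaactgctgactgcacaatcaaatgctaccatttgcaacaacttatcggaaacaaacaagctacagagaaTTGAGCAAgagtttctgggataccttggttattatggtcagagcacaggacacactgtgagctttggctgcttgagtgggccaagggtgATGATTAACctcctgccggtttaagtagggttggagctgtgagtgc
Ahsg: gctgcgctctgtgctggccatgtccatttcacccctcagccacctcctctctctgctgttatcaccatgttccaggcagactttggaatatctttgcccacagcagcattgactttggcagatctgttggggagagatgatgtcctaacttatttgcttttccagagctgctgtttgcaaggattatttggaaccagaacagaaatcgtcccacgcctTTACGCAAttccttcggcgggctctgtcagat

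In Alb, Gc and Fga the capitals nearest the start are the HNF1 letters GTTAATNAT, whose first base lies 32, 52 and 46 bases before it, and which lie on the opposite strand in Fga. The other capitals are the C/EBP letters TTNNGCAA, 94 bases before the start in Alb, 135 in Fga and 32 in Ahsg. The RefSeq table held a promoter for 25 of the 31 members. In windows of 300 bases, from 250 before to 50 after the start and on both strands, the HNF1 letters were in 3 of the 25 (12%, against 0.94% of 27025 genes with a promoter). The C/EBP letters were in 15 of 25 (60%, against 12.2%). The 15 include Serpina1a, Serpina1b, Serpina1d and Serpina1e, copies with similar promoters that are not independent cases. In Serpina1a and Serpinc1 the match lies after the start. HNF4 letters (CAAAGTCCA) were in 0 of 25, against 0.555% of all genes, and the TATA letters TATAAA in 7 of 25 (28%, against 15.7%). The motifs share no required stretch, although a match of TATAAA can overlap another of itself, as in Vtn. These matches describe the letters and show no binding.

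The Serpina1 copies, which encode forms of the protease inhibitor antitrypsin, are shown over coding bases 1099 to 1173, a stretch over the reactive-centre loop, the bait for the protease. It was chosen as the window of 75 bases, the read length, that separates the copies, and capitals mark the 19 positions where they differ (GENCODE transcripts, GRCm38).
Serpina1a: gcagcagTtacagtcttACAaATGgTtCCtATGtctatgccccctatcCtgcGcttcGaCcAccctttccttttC
Serpina1b: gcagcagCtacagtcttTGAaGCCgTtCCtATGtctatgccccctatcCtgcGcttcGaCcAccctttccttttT
Serpina1c: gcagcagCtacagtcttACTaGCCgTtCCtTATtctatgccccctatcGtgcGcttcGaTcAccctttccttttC
Serpina1d: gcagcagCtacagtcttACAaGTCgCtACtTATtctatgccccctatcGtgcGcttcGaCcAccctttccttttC
Serpina1e: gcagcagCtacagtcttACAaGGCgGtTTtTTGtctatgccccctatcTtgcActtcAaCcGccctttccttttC

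Elsewhere the copies are closer. Their coding sequences of 1239 bases were between 96.3% and 98.5% identical in pairs. Of all coding stretches of 75 bases, 73.6% in Serpina1a, 70% in Serpina1c, 41.5% in Serpina1d, 35.8% in Serpina1b and 25.4% in Serpina1e also occur in another gene. Reads from those stretches cannot be given to a copy, so the division of counts among the 5 copies is uncertain and their sum is safer. Serpina3k shares 12.4% of such stretches with Serpina3m. Trf shares 92.8% with Gm20425, a readthrough model that had no counts, and reads common to both could have been dropped. No coding stretch of this length in the other members was shared. The kit was unstranded, so reads of Serpinc1 cannot be told apart from those of Zbtb37 on the opposite strand, which overlaps 34.4% of its exon bases. Antisense models likewise overlap 31.5% of Serpina1c and 20.8% of Apoa5.

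Several libraries stood apart in ways that bear on these genes, and this comes before the results. All 8 macrophage genes looked at, among them Lyz2, C1qa, Csf1r and Adgre1, were present in all 16 libraries, with sums of 19340 to 23910 CPM in dura and 20230 to 26980 in diaphragm (CPM, counts per 1000000 of a library scaled with TMM factors). Markers of Kupffer cells, the macrophages of liver, were high in some diaphragm libraries. Clec4f, a Kupffer cell lectin, stood at 416, 3227 and 1.98 CPM in diaphragm numbers 1, 2 and 3, 1.43 in number 6, and 1025, 3320 and 0.183 in numbers 7, 8 and 9, and at no more than 0.159 in dura. Cd5l and Vsig4 had the same order of sets. The sum of 8 Kupffer markers was 10170 and 9704 CPM in libraries 2 and 8, 2416 and 4022 in 1 and 7, 239 to 279 in 3, 6 and 9, and 45.6 to 243 in dura. Of that low sum in 3, 6 and 9, Id3 alone gave 168 to 205. Among the diaphragm sets 8 of 8 of these markers differed by the edgeR test, against 21.7% of all genes. Markers of liver sinusoidal endothelium were present in libraries 1, 2, 7 and 8. Clec4g stood at 184 and 176 CPM in 1 and 7 and at 4.64 and 15 in 2 and 8. Stab2 stood at 141 and 149.8, and at 88.9 and 72, and Oit3 and Gpr182 were also higher in 1 and 7. Dnase1l3 was level (284 and 306 against 288 and 306), and Clec1b was higher in 2 and 8 (161 and 130.5 against 34.5 and 45.1). Fibroblast genes summed to 15620 and 7548 CPM in libraries 1 and 7, against no more than 827 in the other diaphragm libraries. The 6 endothelial genes summed to 893 to 924 CPM in 1 and 7, 541 to 548 in 2 and 8, 47.3 to 53.6 in 3, 6 and 9, and 31.3 to 116 in dura. Of the last 2 of these sums, Dnase1l3 alone gave 40.01 to 46.05 CPM in 3, 6 and 9 and 24.7 to 105.5 in dura. Results are therefore given with the diaphragm sets apart as well as together.

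Nearly the whole set was higher in the diaphragm libraries. Of the 31 members, 28 had every dural library below every diaphragm library, and 13 had no count in any dural library. Among all 13136 genes tested between tissues, 4.42% had every dural library below every diaphragm library. The 28 include Serpina1a, Serpina1c and Serpina1e, which were not among the genes tested. The share of all genes without a dural count was not computed. The exceptions among the 31 were Trf, Vtn and Tdo2, and they are described by name below. By edgeR's quasi-likelihood test with Benjamini-Hochberg adjustment over all genes at 0.05, 25 members were lower in dura and 0 higher, against 15.3% and 11.2% of all genes. The 3 remaining of the 28 tested were the same Trf, Vtn and Tdo2. Serpina1a, Serpina1c and Serpina1e did not pass the filter on low counts. Members with counts in diaphragm alone could pass that filter only through diaphragm, so the count called is a description, and no p is given in support of those members. The members were also proposed with earlier results of these data known. The median log2 fold change, dura minus diaphragm, was -8.49 over the 28 members tested and -0.01 over all genes tested. With the pooled rate of each gene and the 13 genes without dural counts held at a limit of 3 counts over the dural libraries, the median over all 31 was -7.36. In bulk RNA, fewer cells of a type and less RNA per cell cannot be told apart.

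**Figure D1:**
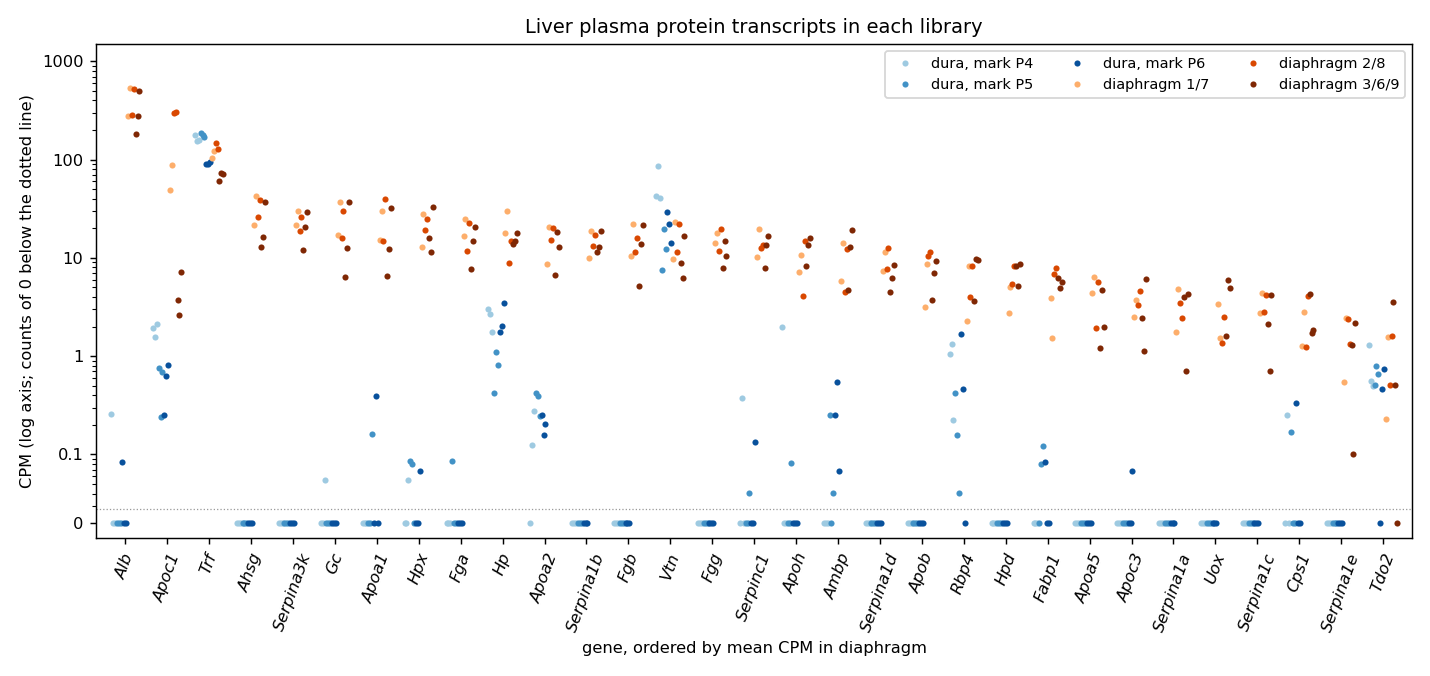
Each point is 1 of 16 libraries, with CPM on a log axis for 31 genes ordered by mean CPM in diaphragm, blue shades for dural marks and brown shades for diaphragm number sets, and counts of 0 drawn below the dotted line. The diaphragm libraries lie above the dural libraries for all genes except Trf, Vtn and Tdo2, where they overlap, and Apoc1 runs from 2.65 to 305 CPM in diaphragm.

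Albumin, the main carrier and osmotic protein of plasma, led the set in diaphragm. Alb (ENSMUSG00000029368, chromosome 5, 90460897 to 90476602, plus strand, GRCm38) stood at 275, 284 and 182 CPM in diaphragm numbers 1, 2 and 3, 276 in number 6, and 536, 521 and 499 in numbers 7, 8 and 9. In dura it had 4 counts in all, giving 0.261 CPM in library 1P4 (number 1, mark P4), 0.0839 in 1P6 and 0 in the other 7. The diaphragm libraries were thus all far above dura, and libraries 7, 8 and 9 were the high ones among them. Mean levels were 368 ± 146 CPM (SD) over the 7 diaphragm libraries and 0.0383 ± 0.0879 over the 9 dural ones. The pooled rate was 12560-fold (95% interval 4906 to 46110) higher in diaphragm, where this and later intervals and limits cover counting error only, since reads were not tagged by molecule. The fitted log2 fold change was -13.27 ± 0.49. For fitted fold changes, here and later, the value after ± is the fold change divided by the square root of the test's F. That value only approximates an SE, and with few dural counts it can be too small. The fitted fold change was -13.39 against libraries 1 and 7 alone, -13.38 against 2 and 8, and -13.03 against 3, 6 and 9. Clec4f was at no more than 1.98 CPM in that last set. Without library 1P4, which held most of the dural counts, the fitted value was -14.57. Per kb of exon Alb was the highest member in diaphragm at 157 CPM per kb, followed by Apoc1 at 145, Trf at 30.2 and Apoa2 at 27.3, and Tdo2 was the lowest at 0.293.

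The smaller carriers of the liver followed albumin. Ahsg, or fetuin-A, which binds calcium phosphate, stood at 21.6, 25.8 and 12.9 CPM in diaphragm numbers 1, 2 and 3, 16.3 in number 6, and 42.2, 38.8 and 36.99 in numbers 7, 8 and 9. No dural library had a count, so its pooled rate was at least 1284-fold higher in diaphragm. Gc, the vitamin D-binding protein, stood at 17.3, 15.8 and 6.37 CPM in diaphragm numbers 1, 2 and 3, 12.7 in number 6, and 37.4, 29.7 and 36.99 in numbers 7, 8 and 9. It had 1 count over the dural libraries, and its pooled rate was 3097-fold (95% interval 555 to 122300) higher in diaphragm. Both genes were lowest in library 3 and highest in 7, 8 and 9, as albumin was. Hpx, which carries free haem, ranged from 11.6 to 32.8 CPM in diaphragm (median 19.4) and reached 0.0847 in dura. Ambp, the precursor of the protease inhibitor bikunin, ranged from 4.46 to 19.1 CPM in diaphragm and reached 0.546 in dura. Rbp4, the retinol carrier, was nearer to dura, at 6.52 ± 3.101 CPM in diaphragm and 0.595 ± 0.605 in dura, a log2 fold change of -3.46 ± 0.68 (adjusted p = 0.00136).

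Haptoglobin, which binds haemoglobin set free from red cells, had a level of its own in dura. Hp (ENSMUSG00000031722, chromosome 8, 109575128 to 109579172, minus strand) stood at 17.8, 8.91 and 13.8 CPM in diaphragm numbers 1, 2 and 3, 14.96 in number 6, and 29.9, 14.9 and 17.8 in numbers 7, 8 and 9. In dura it was 3.04, 2.697 and 1.77 CPM in the P4 libraries of numbers 1, 3 and 4, 0.424, 1.11 and 0.816 in P5, and 1.76, 2.03 and 3.498 in P6. The highest dural library was below the lowest diaphragm library, number 2, and every dural library had counts. The log2 fold change was -3.15 ± 0.37 (adjusted p = 1.09e-05, edgeR), much smaller than for Alb.

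Apolipoproteins package lipids in plasma, and all 7 were lower in dura. Apoa1, the main protein of high-density lipoprotein, stood at 15.2, 14.9 and 6.59 CPM in diaphragm numbers 1, 2 and 3, 12.3 in number 6, and 29.9, 40.1 and 31.9 in numbers 7, 8 and 9. It had 9 counts in dura, from 2 libraries, and its pooled rate was 329-fold (95% interval 173 to 721) higher in diaphragm. Apoa2, its partner in the same particle, stood at 8.65, 15.2 and 6.702 CPM in diaphragm numbers 1, 2 and 3, 18.3 in number 6, and 20.5, 20.3 and 12.8 in numbers 7, 8 and 9, and at no more than 0.424 in dura. Every diaphragm library was above every dural library for both, with the low values in library 3. Apoh, a phospholipid-binding glycoprotein, stood at 7.15, 4.13 and 8.2 CPM in diaphragm numbers 1, 2 and 3, 13.4 in number 6, and 10.6, 15 and 15.96 in numbers 7, 8 and 9. In dura it was 1.999 CPM in 1P4, 0.0816 in 4P5 and 0 in the other 7, so nearly all of its 25 dural counts lay in 1 library. Its log2 fold change was -5.60 ± 1.02 with that library and -8.91 without it. Apob, the structural protein of very-low-density lipoprotein, and Apoa5, a regulator of plasma triglyceride, had no dural count, and their pooled rates were at least 342-fold and at least 165-fold higher in diaphragm. Apoc3, an inhibitor of lipoprotein lipase, had 1 dural count and ranged from 1.12 to 6.04 CPM in diaphragm.

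Serpins of plasma were almost wholly confined to the diaphragm libraries, with 9 dural counts, all of Serpinc1. Serpina3k, an antichymotrypsin-type serpin, stood at 21.8, 18.7 and 12.02 CPM in diaphragm numbers 1, 2 and 3, 20.5 in number 6, and 29.9, 25.7 and 29.1 in numbers 7, 8 and 9, and its pooled rate was at least 1011-fold higher in diaphragm. Serpina1b, the most abundant antitrypsin copy here, stood at 9.93, 13.3 and 11.4 CPM in diaphragm numbers 1, 2 and 3, 12.8 in number 6, and 18.98, 17.2 and 18.6 in numbers 7, 8 and 9. Serpina1d stood at 7.33, 7.703 and 4.46 CPM in diaphragm numbers 1, 2 and 3, 6.21 in number 6, and 11.6, 12.7 and 8.37 in numbers 7, 8 and 9. These 3 had no dural count and varied less among diaphragm libraries than Gc did. Serpinc1, antithrombin, stood at 10.1, 12.7 and 7.97 CPM in diaphragm numbers 1, 2 and 3, 13.6 in number 6, and 19.8, 13.4 and 16.7 in numbers 7, 8 and 9, and at no more than 0.376 in dura (log2 fold change -7.53 ± 0.65, and -8.72 without 3P4, which held most of the dural counts). The other antitrypsin copies were scarcer. Serpina1a had a median of 3.48 CPM in diaphragm, Serpina1c 2.83 and Serpina1e 1.33. Per kb of exon, Serpina1b and Serpina1d were level at 6.05 and 5.97 CPM per kb, above Serpina1c at 2.23, Serpina1a at 1.68 and Serpina1e at 0.913. Serpina1a and Serpina1c are the copies with the largest shared part of the sequence, while Serpina1e, the lowest, has the smallest (25.4%). The part of shared sequence in these levels was not tested.

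The fibrinogen chains, which assemble into the precursor of the clot, were present in every diaphragm library. Fga stood at 16.8, 11.7 and 7.71 CPM in diaphragm numbers 1, 2 and 3, 14.96 in number 6, and 25.1, 22.8 and 20.4 in numbers 7, 8 and 9. Fgb stood at 10.5, 11.4 and 5.17 CPM in diaphragm numbers 1, 2 and 3, 13.9 in number 6, and 22.01, 15.8 and 21.6 in numbers 7, 8 and 9. Fgg stood at 14.1, 11.7 and 7.94 CPM in diaphragm numbers 1, 2 and 3, 14.96 in number 6, and 17.8, 19.7 and 10.3 in numbers 7, 8 and 9. All 3 chains were lowest in library 3. Over the 9 dural libraries the 3 chains had 1 count together, of Fga in 1P5. The pooled rate of Fga was 2307-fold (95% interval 414 to 91160) higher in diaphragm, that of Fgb at least 641-fold and that of Fgg at least 609-fold. Per kb of exon the chains stood at 5.67 (Fga), 3.76 (Fgb) and 6.58 CPM per kb (Fgg) in diaphragm.

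The 5 intracellular members summed to 11.5 to 24.3 CPM in diaphragm, and 4 of the 5 were lower in dura. Hpd, hydroxyphenylpyruvate dioxygenase of tyrosine breakdown, stood at 2.73, 5.43 and 8.2 CPM in diaphragm numbers 1, 2 and 3, 5.19 in number 6, and 5.097, 8.18 and 8.73 in numbers 7, 8 and 9, with no dural count. Fabp1, the fatty acid-binding protein of liver, stood at 3.87, 6.82 and 6.25 CPM in diaphragm numbers 1, 2 and 3, 4.89 in number 6, and 1.51, 7.96 and 5.71 in numbers 7, 8 and 9, and at no more than 0.122 in dura. In both, library 3 was above library 7, the reverse of albumin. Uox, urate oxidase, stood at 3.42, 1.35 and 1.61 CPM in diaphragm numbers 1, 2 and 3, 6.01 in number 6, and 1.51, 2.51 and 4.89 in numbers 7, 8 and 9, with no dural count. Cps1, the entry enzyme of the urea cycle, stood at 1.27, 1.25 and 4.27 CPM in diaphragm numbers 1, 2 and 3, 1.73 in number 6, and 2.81, 4.07 and 1.83 in numbers 7, 8 and 9, and at no more than 0.336 in dura. Tdo2, tryptophan dioxygenase, overlapped between tissues, with 0 to 3.56 CPM in diaphragm (median 0.5104) and 0 to 1.304 in dura (median 0.565). Its log2 fold change of -0.89 ± 0.76 did not pass (adjusted p = 0.416, edgeR).

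Within diaphragm the members were compared among the sets 1/7, 2/8 and 3/6/9. By edgeR's test over 15200 genes, 2 of 31 members differed among the sets, Apoc1 and Trf, against 21.7% of all genes, and 3 had an unadjusted p under 0.05, the third being Hp (p = 0.0477, adjusted p = 0.15). Each set mixes numbers 1 to 3 with 7 to 9, which differed in many members (below), and the fit counted that as noise. A fit with the triplet of numbers (1 to 3, 4 to 6 or 7 to 9) as a block again called only Apoc1 and Trf. Alb then had an adjusted p of 0.168 (edgeR), against 0.784 without the block. In simulated data the test without the block found 25% of log2 changes of 1, so few calls do not show that the sets are level. With Trf, Vtn, Tdo2 and Apoc1 set aside, a choice made after their values were seen, the other 27 members summed to 501 and 944 CPM in libraries 1 and 7, 523 and 905 in 2 and 8, and 353, 527 and 887 in 3, 6 and 9. Dura held 1.55 to 6.34. The sets overlapped, and library 9, with Clec4f at 0.183 CPM, had nearly the level of libraries 7 and 8, with Clec4f at 1025 and 3320. Of the 31 members, 27 were called lower in dura against libraries 1 and 7 alone (10.8% of all genes tested there), 28 against 2 and 8 alone (7.46%), and 25 against 3, 6 and 9 alone (16.3%). Here too, members without dural counts passed the filter only through diaphragm.

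**Figure D2:**
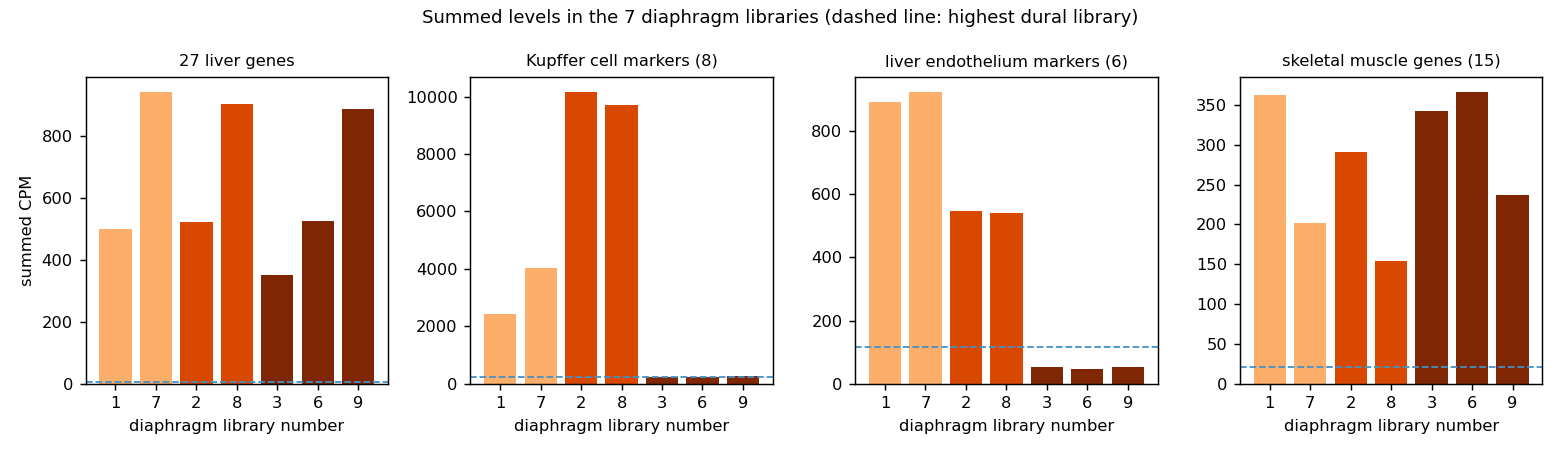
Bars give the summed CPM of 4 gene lists in each of the 7 diaphragm libraries, from 0, ordered and coloured by number set, with a dashed line at the highest dural library. The 27 liver genes are high in libraries 7, 8 and 9 of all sets, while the 8 Kupffer markers and 6 liver endothelium markers are low in 3, 6 and 9, and the 15 muscle genes are lower in 7, 8 and 9 than in 1, 2, 3 and 6.

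The members also differed by number within the sets. In 17 of 31 members libraries 7, 8 and 9 were all above 1, 2 and 3, and in 0 members all below. Among all 15200 genes tested in diaphragm, 3.06% had 7, 8 and 9 all above and 2.63% all below. This split was noticed in the values, so it is a description with no test, and the labels do not say what separates the numbers. The mean over libraries 7, 8 and 9 was 2.1 times that over 1, 2 and 3 for Alb, 2.64 for Gc, 2.78 for Apoa1, 2.196 for Fgb and 1.61 for Serpina3k. By role it held for 7 of 9 carriers, 3 of 7 apolipoproteins, 5 of 7 serpins, 2 of 3 fibrinogen chains and 0 of 5 enzymes. Skeletal muscle genes ran the other way. In 7 of 14 muscle genes tested, libraries 7, 8 and 9 were all below 1, 2 and 3, and Acta1, skeletal actin, stood at 149.8, 123 and 152 CPM in diaphragm numbers 1, 2 and 3, 168 in number 6, and 82.6, 70.7 and 103 in numbers 7, 8 and 9. The 15 muscle genes summed to 7.42 to 21.5 CPM in dura and 155 to 367 in diaphragm. The part of muscle RNA in the result was not tested.

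Summed by role, the 27 genes had a similar makeup in all diaphragm libraries, apart from the enzymes. Alb took between 51.7% and 57.6% of their summed counts, the other carriers 14.2% to 17.3%, the apolipoproteins without Apoc1 8.17% to 10.8%, the serpins 8.50% to 12.3%, the fibrinogen chains 5.90% to 8.32%, and the enzymes with Fabp1 1.16% to 5.76%. The highest share of enzymes was in library 3, which had the lowest sum, and the lowest was in library 7, which had the highest. Single genes of other roles could vary more than the role sums, as Rbp4 (0.455% to 1.83%) and Serpina1a (0.135% to 1.135%) did. Ratios to Alb, with 0.5 added to each count, had an SD over the 7 libraries of 0.19 on the log2 scale for Ahsg, 0.22 for Fga and 0.24 for both Serpina1d and Serpina3k, the 4 smallest. The SD of their own log2 CPM was 0.65, 0.57, 0.48 and 0.44. The SD of the ratio was 1.34 for Serpina1e, 1.14 for Fabp1 and 0.99 for Uox, the 3 largest. Genes of the same libraries share depth and scaling, and Serpina1e had only 243 counts in diaphragm.

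**Figure D3:**
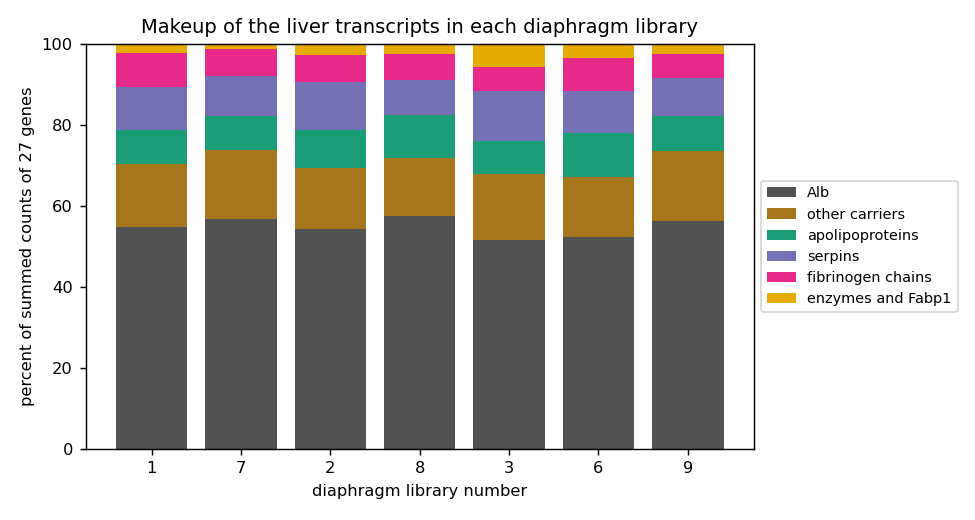
Stacked bars give the percent of the summed counts of 27 genes taken by each role in the 7 diaphragm libraries, ordered by number set. Alb takes 51.7% to 57.6% in every library, and the enzyme share is largest in library 3 at 5.76%.

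Transferrin, the iron carrier, did not follow the liver genes. Trf (ENSMUSG00000032554, chromosome 9, 103204001 to 103230444, minus strand) stood at 178, 155 and 158 CPM in the P4 libraries of numbers 1, 3 and 4, 186, 179 and 168 in P5, and 90.8, 90 and 94.7 in P6. In diaphragm it stood at 103 and 122 in libraries 1 and 7, 147 and 128 in 2 and 8, and 61.1, 72.2 and 70.9 in 3, 6 and 9. The low libraries were those of P6 in dura and of 3, 6 and 9 in diaphragm, and the tissues overlapped. Trf differed among the dural marks (adjusted p = 1.48e-05) and among the diaphragm sets (adjusted p = 0.000991, both edgeR). Between tissues its log2 fold change was 0.52 ± 0.22, which did not pass (adjusted p = 0.085), and it passed without library 2 (0.64, adjusted p = 0.0437), without 4P6 (0.61, adjusted p = 0.0481) and against 3, 6 and 9 alone (1.09, adjusted p = 0.00542).

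Vitronectin, an adhesive protein of plasma and matrix, was likewise present in dura. Vtn (ENSMUSG00000017344, chromosome 11, 78499091 to 78502324, plus strand) stood at 42.4, 85.05 and 40.4 CPM in the P4 libraries of numbers 1, 3 and 4, 7.54, 19.6 and 12.3 in P5, and 29.1, 22.1 and 14.3 in P6. The P4 libraries were all above those of P5 and P6, and Vtn differed among marks (adjusted p = 0.00219, edgeR). Fibroblast genes were also highest in P4, summing to 2017 to 3660 CPM in P4, 564 to 755 in P5 and 239 to 379 in P6. They fell from P5 to P6, where the mean of Vtn rose from 13.1 to 21.8 CPM. Their part in the result was not tested. In diaphragm Vtn stood at 9.66, 11.6 and 8.76 CPM in diaphragm numbers 1, 2 and 3, 6.31 in number 6, and 23.1, 21.9 and 16.9 in numbers 7, 8 and 9, with 7, 8 and 9 above 1, 2 and 3. The fibroblast sums there were 15620 and 7548 CPM in libraries 1 and 7 and no more than 827 in the others. The tissues overlapped, and the log2 fold change of 1.11 ± 0.44 did not pass (adjusted p = 0.0735), although it passed without 1P5 (1.24, adjusted p = 0.0384).

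Apoc1, a small apolipoprotein that inhibits lipid transfer and uptake, had the order of the Kupffer cell markers among the diaphragm sets, and their part in its level was not tested. Apoc1 (ENSMUSG00000040564, chromosome 7, 19689481 to 19692660, minus strand) stood at 297 and 305 CPM in diaphragm numbers 2 and 8, 49.5 and 89.01 in 1 and 7, and 3.71, 2.65 and 7.13 in 3, 6 and 9. That is the order of the sets for Clec4f given above, and the sets did not overlap (adjusted p = 4.76e-06, edgeR). In dura it stood at 0.238 to 2.11 CPM (median 0.762), with counts in all 9 libraries. Its log2 fold change between tissues was -6.73 ± 0.99 (adjusted p = 0.000106). Against libraries 2 and 8 alone it was -8.21, and against 3, 6 and 9 alone it was -2.16 (adjusted p = 0.0129). The call was lost with limma-voom (-5.39, adjusted p = 0.273) and with dural libraries summed per number (-6.73, adjusted p = 0.0507).

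**Figure D4:**
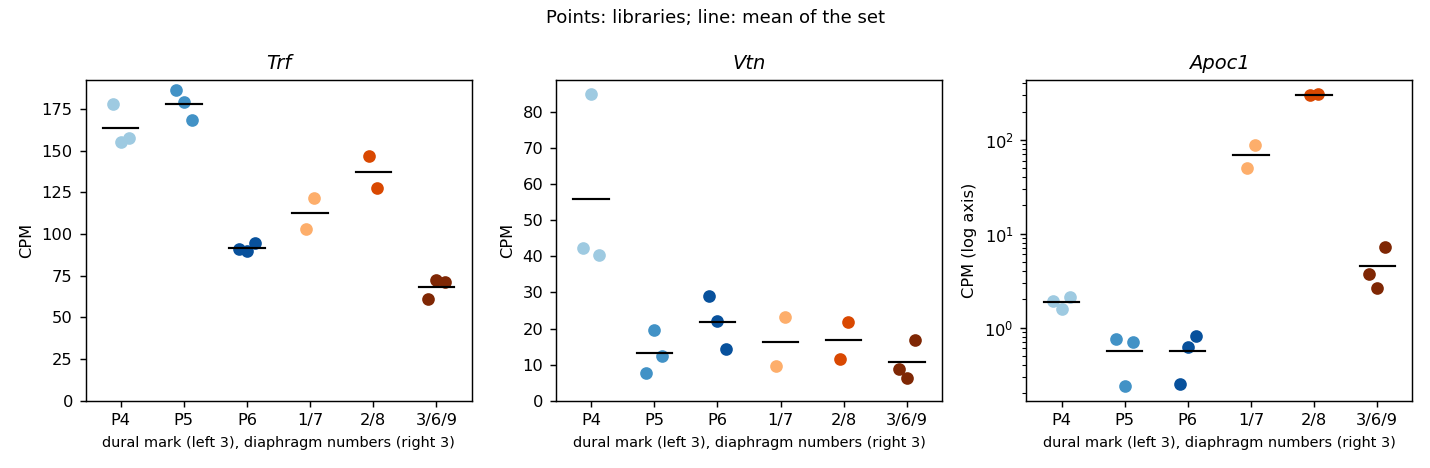
Points are libraries and lines the mean of each set, with CPM from 0 for Trf and Vtn and on a log axis for Apoc1. Trf is low in P6 and in 3/6/9, Vtn is high in P4 with 85.1 CPM in 3P4, and Apoc1 is highest in diaphragm libraries 2 and 8 at 296.8 and 305.0 CPM.

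Among the dural marks 5 members passed the filter, and 2 of them, Trf and Vtn, differed by edgeR's test, against 29.8% of 13239 genes. Rbp4 (adjusted p = 0.455), Hp (0.079) and Apoc1 (0.102) did not pass. Without Trf and Vtn the members had 653 counts over the 9 dural libraries, against 19594 for Trf and 4053 for Vtn. Apart from Hp, Apoc1 and Trf and Vtn themselves, no member had a count in every dural library.

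Other genes that hepatocytes express were looked at through lists written for this work. Of 40 further plasma proteins, 16 were tested between tissues, of which 13 were lower and 0 higher in dura, against 15.3% and 11.2% of all genes. The other 24 did not pass the filter, and 16 of the 40 had no dural count. Genes such as F2, Ces1c and Mup3, without a dural count, passed only through diaphragm, so this count and those of the lists that follow are descriptions. Pzp, a protease inhibitor of the macroglobulin family, stood at 7.15, 13.2 and 6.74 CPM in diaphragm numbers 1, 2 and 3, 7.74 in number 6, and 21.5, 22.9 and 19.4 in numbers 7, 8 and 9, and at no more than 0.204 in dura. The carboxylesterase Ces1c ranged from 4.98 to 20.1 CPM and kininogen, Kng1, from 4.42 to 19.2. The most abundant, the copper carrier Cp, was not called (log2 fold change 1.48, adjusted p = 0.0606), with 67.5 to 458 CPM in dura. Of 40 further liver enzymes and transporters, 17 were tested, 12 were lower and 1 higher in dura. The higher gene was Kmo, an enzyme of tryptophan breakdown that macrophages also express. Gamt, of creatine synthesis, was not called, while Ass1, of the urea cycle, and Adh1, alcohol dehydrogenase, were lower (log2 fold changes -0.10, -2.10 and -2.88). Ass1 had 438 counts in dura and differed among the dural marks (adjusted p = 0.00174, edgeR). It also differed among the diaphragm sets (adjusted p = 0.0167, edgeR), where it was highest in 3, 6 and 9. Of 37 of these genes tested in diaphragm, 3 differed among the sets, Ass1, Hal and Mat1a, against 21.7% of all genes. Of 8 genes typical of hepatocytes near the portal vein, some of them also among those enzymes, 3 of 5 tested were lower in dura, namely Hal, Pck1 and Gls2, while Arg1 and Cyp2f2 did not pass. Of 9 genes typical of hepatocytes near the central vein, 2 of 4 tested were lower, namely Slc1a2 and Cyp2e1. Glul and Oat, which macrophages also express, did not pass. Slc1a2 had 218 counts in dura and stood at 18.4 and 21.85 CPM in libraries 2 and 8, against 1.22 to 5.90 in the other diaphragm libraries. It was among 3 of 7 of these genes that differed among the diaphragm sets (adjusted p = 0.0112, edgeR). Cyp2e1 ranged from 2.04 to 7.32 CPM in diaphragm and had 3 counts in dura.

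Hepatocyte transcription factors were scarce in both tissues. Of 12 listed, 2 were tested, and Prox1, which endothelium also expresses, was lower in dura (log2 fold change -2.41, adjusted p = 0.0238). Creb3l3 was not called. Hnf4a had 137 counts over the diaphragm libraries, with 0 in libraries 1, 3 and 7 and 4.62 CPM in library 9, and 2 counts in dura. Nr1h4 had 172 counts in diaphragm and 41 in dura. Neither Hnf4a nor Nr1h4 passed the filter for the test between tissues.

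Markers of intestine, kidney and lung were near 0, and those of some other cells were not. The 10 intestinal genes summed to no more than 2.696 CPM in any diaphragm library, the 9 kidney genes to 1.05 and the 8 lung genes to 1.82, with 7 of the 8 lung genes at 0 in all of them. Pancreatic acinar genes were at no more than 1 CPM in every library except Cela1, which reached 20.4 CPM in diaphragm and 35.1 in dura. Genes of mesothelium, the lining of body cavities, summed to 18.99 and 45.5 CPM in libraries 1 and 7 and to no more than 9.01 in the others. Bile duct genes summed to 1.11 to 13 and stellate cell genes to 13.6 to 63.99 in diaphragm. Among the diaphragm sets 3 of 5 stellate genes tested differed by edgeR's test (Lrat, Colec10 and Vipr1), against 21.7% of all genes. Colec10 stood at 16.1 and 9.83 CPM in libraries 2 and 8, 3.37 and 4.69 in 1 and 7, and 0 in 3, 6 and 9. Lrat stood at 10.95 and 5.03, 2.37 and 2.92, and no more than 0.503 in those sets. Vipr1 was also highest in 2 and 8, while Reln reached 35.7 CPM in library 3. Red cell genes summed to 0.299 to 25.1 in diaphragm and 1.09 to 122 in dura. The 6 choroid plexus genes, whose tissue is known for its own secreted plasma proteins, summed to 235 CPM in dural library 1P6. There Rbp4 was at its highest dural level, 1.68 CPM. In 4P4 and 4P5, next in choroid plexus sum at 27.2 and 26.3 CPM, Rbp4 was at 0.222 and 0.0408. In 3P4 and 1P4, with sums of 4.89 and 4.17, it was at 1.32 and 1.04. The part of these cells in the result was not tested.

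Receptors through which macrophages take up plasma proteins ranged from abundant to scarce. Of 18 listed, 16 were tested between tissues, 7 were lower and 2 higher in dura, against 15.3% and 11.2% of all genes, and Cubn and Lrp2, receptors of kidney tubules, had too few counts. The 4 highest in diaphragm were Lrp1, Cd163, Fcgrt and Cd36. Lrp1, the receptor of haem-bound hemopexin, stood at 722 ± 142 CPM (SD) over the 9 dural libraries and 1297 ± 150.2 over the 7 of diaphragm, a log2 fold change of -0.84 (adjusted p = 0.000235, edgeR). Cd163, which takes up haptoglobin with haemoglobin, stood at 899 ± 589.5 and 937 ± 414 CPM, and Fcgrt, which rescues albumin from breakdown, at 861 ± 310.3 and 904 ± 432. Neither was called between tissues, nor was Cd36, a lipid scavenger receptor. The 2 higher in dura were Itgb5, a chain of a vitronectin-binding integrin, and Abca1, which loads cholesterol onto Apoa1. Among the diaphragm sets 15 of 16 tested differed, all but Lrp1, against 21.7% of all genes.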

How the data were processed

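The authors deposited a table of whole-number counts per gene. Its name calls it normalised, but column totals run from 1496 to 24077834 and small whole numbers occur without gaps, so it was used as unscaled counts. STAR 2.4.0j, featureCounts, DESeq2 1.20.0 and the build GRCm38 are listed in the submitters' processing notes, which here give no order of steps. Reads were 75 bases, single-end and unstranded, per the labels' protocols. Of 24 columns, 6 diaphragm columns with an added prefix were summed with those of the same number, as repeat runs of 1 library, and 2 columns with under 10000 counts were left out. Members and gene lists were chosen with earlier results of these data known. Genes were filtered with filterByExpr, scaled with TMM and tested with edgeR 4.0.16 (R 4.3.3) by the quasi-likelihood test, two-sided, with Benjamini-Hochberg adjustment over all genes and a threshold of 0.05. Tissues were compared over 16 libraries, dural marks over 9, and diaphragm number sets over 7. The scripts were tested on simulated data, with 100 genes changed by 1 on the log2 scale and 100 by 2, in 1 group of libraries. Those recovered were 51% and 80% between tissues, 25% and 74% among diaphragm sets, and 67% and 89% among dural marks. Alternatives used other scaling (upper-quartile, RLE, totals only), no filter, DESeq2 1.42.0, limma-voom (limma 3.58.1), libraries left out, sets alone, 6 sets in the fit, dural libraries summed, repeat runs unsummed and replicate blocks. The block by triplets of numbers and library 6 alone were added after the data were seen. Limits for genes without counts use 3 counts over the tissue, and exact 95% intervals came from scipy 1.17.1. Values in every library are given for Alb, for up to 4 members of each role with the highest mean CPM in diaphragm and at least 50 counts there, and for members whose dural mean reached 1 CPM. Other members are given by ranges, and up to 4 genes of each other list are named by mean CPM in diaphragm. Itgb5, Abca1, Cyp2f2, Cubn, Lrp2, F2, Mup3, Mat1a, Oit3 and Gpr182 were named after their values were seen. Coordinates and exon lengths are from GENCODE M21.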

Additional observations from a re-analysis of the deposited data

Results flagged for a closer look

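In 34 groups of member values with a mean of at least 1 CPM, 2 held a library far from the others by Dixon's criterion, which chance alone meets in about 1 of 20 groups. Hp stood at 29.9 CPM in diaphragm library 7, and the next library had 17.8. Vtn stood at 85.05 CPM in dural library 3P4, and the next had 42.4. In 3P4 the fibroblast genes were also at their highest dural sum, 3660 CPM, and their part in the value was not tested.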

How the results depend on the processing

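The count of members called between tissues was 25 and ranged from 22 to 30 over 31 alternatives, within 1.5 times of it. The 28 members tested kept their direction in every alternative run, except Tdo2, which was not called and stood at 0.31 against diaphragm library 6 alone. The 22 came from that library alone, where Cps1 also lost its call (-4.24, adjusted p = 0.0999) as did Apoc1 (-1.36, adjusted p = 0.351); the lone library was assumed to vary like the others.  Trf passed with library totals (0.65, adjusted p = 0.0475), upper-quartile factors (0.60, adjusted p = 0.0478) and 6 library sets in the fit (0.49, adjusted p = 9.47e-06), and Vtn with DESeq2 (1.12, adjusted p = 0.0378) and 6 sets (0.84, adjusted p = 0.0235); the cause was not tested. Leaving out each library in turn gave 25 to 28 members and 2969 to 3585 genes called between tissues, and 2 members called among dural marks and 2 among diaphragm sets each time. Without 1 dural library each, the fitted fold moved by over 1.5 times, without loss of a call, for Alb, Apoh, Serpinc1, Gc (4P4, -11.63), Fga (1P5, -11.28), Fabp1 (4P5, -7.67), Cps1 (1P6, -5.42), Ambp (3P6, -7.10), Apoa1 (3P6, -9.16) and Apoc3 (4P6, -8.94). Genes called over the whole table numbered 3472, and 1259 with dural libraries summed per number, 1701 against libraries 2 and 8 alone, 2107 against library 6 alone and 5978 with 6 sets in the fit; the cause was not tested. Same-numbered dural libraries had correlations of 0.0475 to 0.225 of their deviations, all of them positive. The main fits did not pair these libraries, so they may overstate the number of independent dural libraries. With the dural number as a replicate block 24 members were called between tissues (limma-voom), where Apoc1 lost its call (-5.39, adjusted p = 0.354), and 2 among the marks. Without a filter Alb was also called among the diaphragm sets and Apoh among the marks, and with DESeq2 Hp among the marks, giving 3 each. Depth limits the scarce members: 13 had no dural count, and 6 had 1 to 5 counts.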

Other observations

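The repeat runs of the 6 summed diaphragm pairs gave Alb at ratios of 0.980 to 1.04 between runs, on library totals. The 2 diaphragm columns left out had 2115 and 1496 counts, with 0 and 1 count of a member, the 1 being Apob.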
